A study of Mus musculus with 6 samples.

Results

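The genes described here encode 9 enzymes that set the supply of deoxynucleotides, the building blocks of DNA, in a mouse myeloid leukemia line treated with an inhibitor of the arginine methyltransferase PRMT5. They were taken by symbol (Cad, Dhodh, Tyms, Tk1, Rrm1, Rrm2, Rrm2b, Dck and Samhd1), and all 9 were among the 11644 genes of the deposited table. RNA was sequenced in 3 libraries of MLL-ENL/NrasG12D cells kept for 72 h with 5 µM EPZ015666, a small molecule that inhibits PRMT5. These were compared with 3 libraries of the same cells given DMSO, the solvent, at an equal concentration. Cells of both groups were treated again on day 2, and cells of both groups carry the fusion of MLL with ENL and the activated form of Nras. The labels give no clone or passage for the line, and the series text calls the replicates independent without saying what was repeated, so p-values measure the spread between these libraries, which may be technical. The question is which transcripts of the pathway differ when PRMT5 is inhibited.

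Deoxynucleotides are made along a pair of routes. In the de novo route, CAD and DHODH build the pyrimidine ring, ribonucleotide reductase turns ribonucleotides into deoxyribonucleotides, and thymidylate synthase makes the thymidine nucleotide. In the salvage route, thymidine kinase and deoxycytidine kinase phosphorylate nucleosides taken up by the cell. SAMHD1 works against both by cleaving deoxynucleotides. Many of these genes are known as S-phase genes and as targets of E2F factors, and proliferating leukemia cells depend on them.

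The libraries held between 11335948 and 19197912 reads assigned to genes. Values are normalized counts, that is, read counts that the authors had scaled to a common depth, library by library. Every one of the 9 genes had at least 187 reads in each library. DMSO library 2 stood apart from the other DMSO libraries in stress genes: Ddit3, a transcription factor of the stress response, had 1378 normalized counts there, against 171 and 237 in DMSO libraries 1 and 3. Results that rest on that library are given with and without it. Ptprc, the general marker of blood cells, lay between 6624 and 7126 in inhibitor libraries and between 6653 and 7377 in DMSO libraries, and none of the 11 listed markers of T cells, B cells and erythroid cells was in the table. Of 4 stromal and endothelial markers, Col1a1 and Col1a2 were not in the table, Pdgfrb was at or below 10.6 normalized counts in each library, and Pecam1, which blood cells also carry, lay between 2996 and 3977. Of 11 markers of myeloid cells, 10 were in the table. Their summed level was 28660 to 30309.5 normalized counts in inhibitor libraries, against 16957 to 21271 in DMSO libraries. By the test used below, 6 were higher (Cd34, Spi1, Csf1r, Csf3r, Itgam and Fcgr3) and 3 lower (Mpo, Prtn3 and Cebpa). Kit did not pass. The groups overlapped for Mpo, at 408 in inhibitor library 1 and 371 in DMSO library 2. The inhibitor mean of Mpo was 0.404 of the DMSO mean, and 0.316 without DMSO library 2. Among all genes, 23.6% were higher and 22.9% lower. Cd34 and Itgam weighed most in the sum with the inhibitor, with means of 13430 and 6314, against 8846 and 1667 in DMSO. The part of these marker changes in the results below was not tested.

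With the inhibitor, Tk1, Cad and Dck fell, Tyms rose by a small amount, and Rrm1, Rrm2, Rrm2b, Dhodh and Samhd1 did not pass (limma, adjusted p under 0.05 over all genes). Thus 3 of 9 fell and 1 of 9 rose, and the calls on Dck and Tyms were each lost in 3 of the 6 fits that left out 1 library. Of all 11644 genes, 22.9% fell and 23.6% rose, or 46.5% in either direction, so 4 calls among 9 genes are close to the share among all genes. The libraries of the 2 groups did not overlap for the same 4 of the 9 genes, against 56.0% of all genes. The median log2 fold change of the 9 genes was -0.18, beside 0.00 for all genes. In RNA from whole cultures, fewer cells with a transcript and less transcript per cell cannot be told apart.

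**Figure D1:**
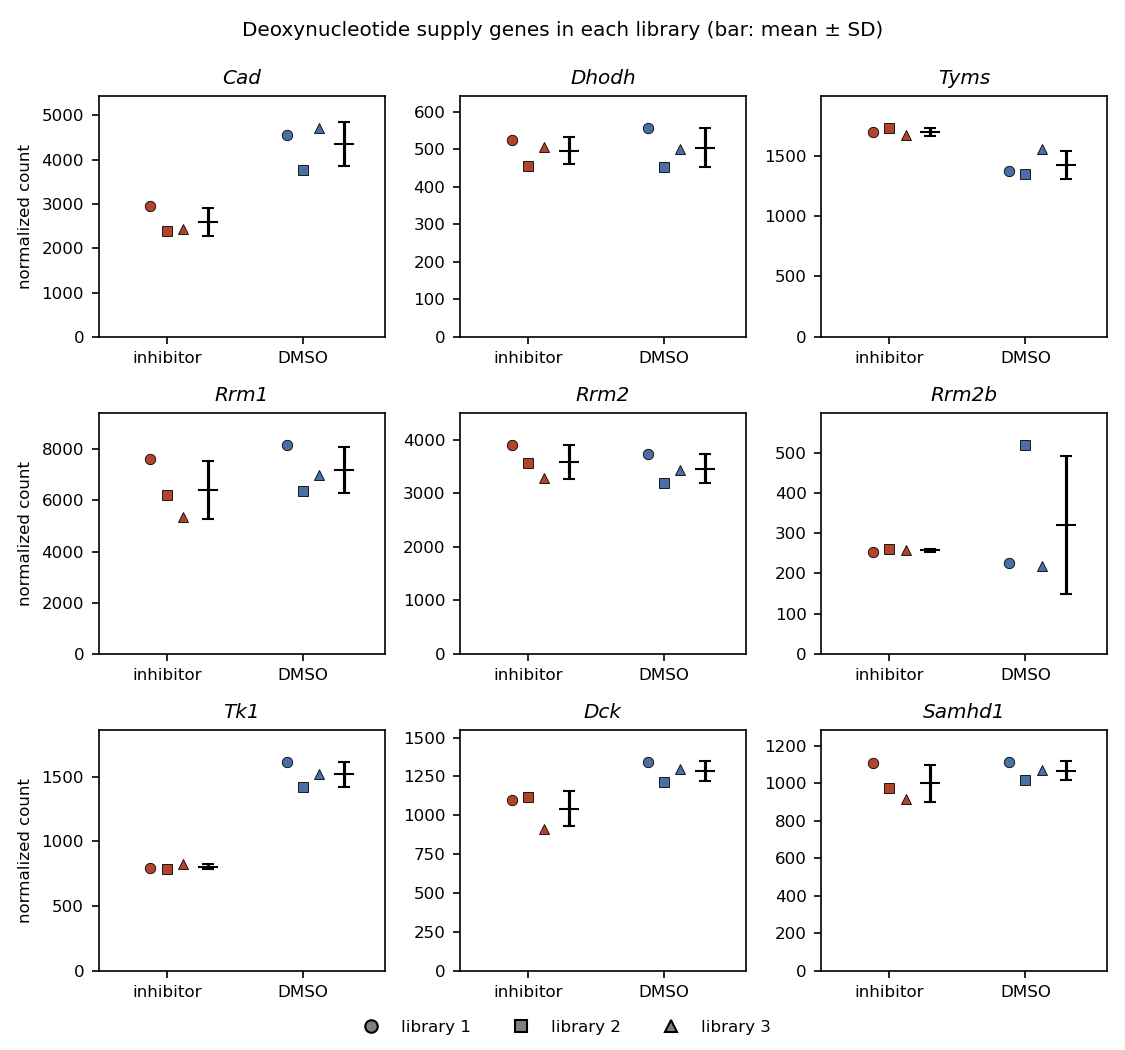
Normalized counts of the 9 genes in each library (y axis, from 0), with the 3 inhibitor libraries on the left and the 3 DMSO libraries on the right of each panel. Symbols mark library numbers, which were not taken to pair the libraries, and bars are the mean ± SD. Tk1 lay between 790.1 and 828 with the inhibitor and between 1422 and 1614 in DMSO, whereas Rrm2b was between 253 and 261 with the inhibitor and reached 519.9 in DMSO library 2.

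Promoters of 4 of the genes are shown because these S-phase or growth genes went different ways: Tk1 and Cad fell, Tyms rose and Rrm2 did not pass. Each runs from 250 bases before to 50 bases after the RefSeq start (build GRCm38.p6, which is mm10), 5′ to 3′ on the gene's strand. The windows are chr11:117825965-117826264 (minus strand) for Tk1, chr5:31054530-31054829 (plus strand) for Cad, chr5:30073576-30073875 (minus strand) for Tyms and chr12:24708004-24708303 (plus strand) for Rrm2. Capitals mark, on either strand, the 6-letter cores of E2F sites (TCCCGC as well as TGGCGC, then TCGCGC, and also TGCCGC), the CCAAT box (CCAAT) and the E-box (CACGTG), the last being the letters bound by MYC with MAX.
Tk1: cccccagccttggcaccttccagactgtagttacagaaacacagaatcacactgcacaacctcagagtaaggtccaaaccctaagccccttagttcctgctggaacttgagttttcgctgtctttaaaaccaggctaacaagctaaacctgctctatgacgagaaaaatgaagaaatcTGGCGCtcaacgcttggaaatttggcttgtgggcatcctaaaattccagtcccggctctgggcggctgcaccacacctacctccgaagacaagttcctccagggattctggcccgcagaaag
Cad: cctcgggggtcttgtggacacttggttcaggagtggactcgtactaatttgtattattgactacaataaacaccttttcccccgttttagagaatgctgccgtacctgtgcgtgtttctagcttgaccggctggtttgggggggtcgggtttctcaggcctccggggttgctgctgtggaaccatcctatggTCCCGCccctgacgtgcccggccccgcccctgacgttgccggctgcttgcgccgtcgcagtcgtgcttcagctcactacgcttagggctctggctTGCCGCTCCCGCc
Tyms: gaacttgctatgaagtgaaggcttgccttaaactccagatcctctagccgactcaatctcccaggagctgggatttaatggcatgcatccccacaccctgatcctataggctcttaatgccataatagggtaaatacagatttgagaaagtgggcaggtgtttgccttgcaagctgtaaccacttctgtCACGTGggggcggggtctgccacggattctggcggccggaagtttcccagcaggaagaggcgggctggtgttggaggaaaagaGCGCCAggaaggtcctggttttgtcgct
Rrm2: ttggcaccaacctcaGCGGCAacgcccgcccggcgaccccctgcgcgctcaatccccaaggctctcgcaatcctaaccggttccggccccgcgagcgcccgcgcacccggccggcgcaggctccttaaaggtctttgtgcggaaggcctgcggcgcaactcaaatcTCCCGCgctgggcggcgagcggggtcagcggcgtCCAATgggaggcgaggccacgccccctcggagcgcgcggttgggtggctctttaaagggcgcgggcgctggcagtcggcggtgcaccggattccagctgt

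RefSeq promoters were matched for 7 of the 9 genes (all but Dhodh and Rrm2b). An E2F core was in 7 of these 7 windows, against 36.3% of all 32851 promoter windows of the same length. The GC content of the 7 windows ran from 47% (Rrm1) to 71.3% (Rrm2). The set of all windows was not matched for GC content or for expression. The Tk1 window had 1, starting at base -72 from the start, and the Tyms window had 1, starting at base 23 after it. The Cad window had 3 and the Rrm2 window 2. The full 8-letter forms of these sites (TTTCCCGC, TTTGGCGC, TTTCGCGC and TTTGCCGC) were in none of the 7 windows and in 2.26% of all windows. The GC box (GGGCGG) was in 6 of the 7 windows, all but that of Rrm1, and in 35.7% of all windows, which is nearly the same contrast as for the E2F core. The CHR element, searched as TTTGAA or else TTCGAA, was in the Dck window and in 19.2% of all windows. The CCAAT box was in the windows of Rrm1 and Rrm2 and in 37.4% of all windows. The E-box was in the Tyms window, starting at base -61, and in 7.15% of all windows. In these windows 1 overlap between kinds of motif was found, that of a GC box with an E2F core in the Cad window. These matches describe letters, not binding, and they were searched with the expression values known; genes that fell, rose or did not pass all held an E2F core.

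Cad, the enzyme that carries out the opening steps of pyrimidine synthesis, fell (chromosome 5, 31054780 to 31078479, plus strand, mm10). It had 2944, 2398 and 2427 normalized counts in inhibitor libraries 1, 2 and 3, against 4554, 3774 and 4715 in DMSO libraries 1, 2 and 3. The highest inhibitor library was below the lowest DMSO library. The means were 2589.6 ± 307 with the inhibitor and 4347 ± 503 in DMSO (SD, n = 3 each), and the log2 fold change was -0.75 with an SE of 0.11 (limma adjusted p = 0.000204). The call held without any 1 library, with log2 changes between -0.85 and -0.69.

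Dhodh, which carries out the step of the same route that takes place in mitochondria, did not pass (chromosome 8, 109591343 to 109608673, minus strand). It had 525, 457 and 508 normalized counts in inhibitor libraries, against 558, 454 and 501 in DMSO libraries. The groups overlapped over nearly their whole range, and the log2 fold change was -0.02 with a 95% interval from -0.25 to 0.21 (limma adjusted p = 0.895). Within a library, Cad exceeded Dhodh 5.61, 5.24 and 4.78 times with the inhibitor and 8.17, 8.30 and 9.42 times in DMSO, as ratios of normalized counts that are not corrected for length. This log2 ratio was lower by 0.73 with the inhibitor, with no overlap between the groups. The lack of overlap follows from the Cad and Dhodh values above, so neither it nor the p below adds evidence. Over the 5 ratios compared, the exact permutation test (two-sided) gave p = 0.1, the smallest that 3 against 3 libraries allow, and 0.125 after Benjamini-Hochberg adjustment.

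Other genes of pyrimidine synthesis in the same list rose, fell or did not pass. Of 10 other genes measured, 3 rose, 2 fell and 5 did not pass, with a median log2 fold change of 0.03. These counts are near the shares among all genes, of which 23.6% rose and 22.9% fell. Umps, which completes the uridine nucleotide after DHODH, fell to 1741 ± 136 normalized counts with the inhibitor, against 2619 ± 277 in DMSO (SD, n = 3 each; limma adjusted p = 0.000468). Ctps2, a CTP synthase, fell by 0.51 on the log2 scale (limma adjusted p = 0.000634). Its relative Ctps had 1976, 1948 and 1628 with the inhibitor and 1801, 1661 and 1614 in DMSO. The nucleoside diphosphate kinases Nme1 and Nme2, which phosphorylate diphosphates, rose by 0.33 and 0.47 on the log2 scale, and Cmpk1, a kinase of UMP and CMP, rose by 0.30 (limma adjusted p between 0.00245 and 0.0116). The call on Cmpk1 was lost without inhibitor library 2 (limma adjusted p = 0.0681) or DMSO library 3 (0.0537).

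Tyms, thymidylate synthase, rose (chromosome 5, 30058202 to 30073617, minus strand). It had 1694, 1729.8 and 1667 normalized counts in inhibitor libraries, against 1369.7, 1345 and 1551 in DMSO libraries. Every inhibitor library was above every DMSO library, and the inhibitor libraries lay close together. The means were 1697 ± 31.5 with the inhibitor and 1422 ± 113 in DMSO (SD, n = 3 each), a 1.19-fold rise (log2 change 0.26 with an SE of 0.08, limma adjusted p = 0.0228). The call was lost without inhibitor library 2 (limma adjusted p = 0.0827), without DMSO library 1 (0.0826) and without DMSO library 2 (0.0683), with the direction kept. Annotation lists a processed copy, Tyms-ps, and reads shared with it could not be told apart here.

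Other genes listed for thymidylate synthesis, not all of which act before the enzyme, fell or did not pass. Of 9 such genes, 5 fell, 0 rose and 4 did not pass (limma), with a median log2 fold change of -0.32. Among all genes, 22.9% fell and 23.6% rose. At an unadjusted p under 0.05 the rises also numbered 0, and edgeR and DESeq2 gave 0 as well. The serine hydroxymethyltransferases Shmt1 and Shmt2, which charge folate with a one-carbon unit, fell by 0.77 and 0.94 on the log2 scale (limma adjusted p = 4.23e-05 and 1.42e-05). Dctd, the deaminase that turns dCMP into dUMP, the substrate of thymidylate synthase, fell to 319 ± 35.2 normalized counts with the inhibitor, against 544 ± 65.9 in DMSO (SD, n = 3 each; limma adjusted p = 0.000345). Dut, which makes dUMP from dUTP, and Dtymk, which phosphorylates dTMP, did not pass (limma adjusted p = 0.300 and 0.170). Falls in this list numbered 3 without inhibitor library 2 or DMSO library 1, and 1 gene rose without DMSO library 2.

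Rrm1, the large catalytic subunit of ribonucleotide reductase, did not pass (chromosome 7, 102441695 to 102469771, plus strand). It had 7620.3, 6216 and 5355 normalized counts in inhibitor libraries, against 8170.3, 6379.8 and 7005 in DMSO libraries. Inhibitor library 1 was above DMSO libraries 2 and 3, and the log2 fold change was -0.18 with a 95% interval from -0.46 to 0.11 (limma adjusted p = 0.296). The spread of both groups was wide, with an SD of 1144 around a mean of 6397 with the inhibitor and of 909 around 7185 in DMSO (n = 3 each).

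Rrm2, the small subunit used in S phase, did not pass either (chromosome 12, 24708241 to 24714146, plus strand). It had 3902, 3562 and 3281 normalized counts in inhibitor libraries, against 3741, 3192 and 3440.3 in DMSO libraries. The groups overlapped, and the log2 fold change was 0.05 with a 95% interval from -0.15 to 0.25 (limma adjusted p = 0.681). Within a library, Rrm1 exceeded Rrm2 1.95, 1.75 and 1.63 times with the inhibitor and 2.18, 2.00 and 2.04 times in DMSO, without correction for length. The log2 ratio was lower by 0.23 with the inhibitor and the groups did not overlap (exact permutation p = 0.1, adjusted 0.125). Without DMSO library 1, 2 or 3 the exact permutation p was 0.2.

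Rrm2b, the alternative small subunit that p53 induces and that serves DNA repair and resting cells, had the widest spread of the 9 genes (chromosome 15, 37923952 to 37961318, minus strand). It had 253, 261 and 257 normalized counts in inhibitor libraries, against 227, 519.9 and 218 in DMSO libraries. DMSO library 2 was 2.34 times the mean of the other DMSO libraries, while all 3 inhibitor libraries lay between the DMSO values. The log2 fold change was -0.20 with an SE of 0.26 (limma adjusted p = 0.555), and without DMSO library 2 it turned to 0.21 with an SE of 0.12 (limma adjusted p = 0.180). The inhibitor mean was 257 ± 4.08 (SD, n = 3), against 222 for the mean of DMSO libraries 1 and 3. Rrm2b overlaps an antisense gene and a processed pseudogene in the annotation, and the strand setting of the counting is not given in the sources used here.

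Other p53-induced genes were set beside Rrm2b. Cdkn1a, which encodes the cell cycle brake p21, was higher, with 2999 ± 201 normalized counts with the inhibitor, against 610.0 ± 143 in DMSO (SD, n = 3 each; limma adjusted p = 2.30e-07). Another 6 such genes, chosen after their values were seen, also rose, by between 0.57 (Sesn1) and 3.86 (Phlda3) on the log2 scale, with Mdm2, Ccng1, Bax and Sesn2 between them (limma adjusted p from 5.03e-09 to 0.00426). Of all genes, 23.6% rose, and genes picked in this way give no share for p53-induced genes. DMSO library 2 did not stand above the other DMSO libraries in all of the p53-induced genes named here. Its value over the mean of DMSO libraries 1 and 3 was 1.66 for Sesn2, 1.46 for Cdkn1a and 1.27 for Mdm2, and it was 0.977 for Bax, 0.954 for Ccng1, 0.921 for Phlda3 and 0.864 for Sesn1, against 2.34 for Rrm2b. Trp53, which encodes p53, had a log2 fold change of 0.00 (limma adjusted p = 0.969). Per kilobase of transcript, Rrm2b made up 3.03%, 3.41% and 3.63% of the summed Rrm2 and Rrm2b level in inhibitor libraries, against 2.83%, 7.27% and 2.96% in DMSO libraries. The log2 ratio of Rrm2b to Rrm2 was lower by 0.25 with the inhibitor over all libraries (exact permutation p = 1) and higher by 0.22 without DMSO library 2 (exact permutation p = 0.2, with 0.1 the smallest that 3 against 2 libraries allow). The 3 listed genes that return electrons to the reductase, Txnrd1, Txn1 and Glrx, rose by 0.36, 0.25 and 0.25 on the log2 scale (limma adjusted p = 0.00480, 0.0451 and 0.0464). These are 3 of 3, beside 23.6% risen among all genes, and the groups of Txn1 overlapped. Txnrd1 kept its call without each library in turn, whereas 1 gene of the 3 was called without inhibitor library 2, DMSO library 2 or DMSO library 3, and 1 by edgeR on all libraries.

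Tk1, the S-phase kinase that salvages thymidine, fell most of the 9 genes (chromosome 11, 117815526 to 117826092, minus strand). It had 797, 790.1 and 828 normalized counts in inhibitor libraries, against 1614, 1422 and 1519 in DMSO libraries. The groups were far apart and the inhibitor libraries differed little among themselves. The means were 805 ± 20.0 with the inhibitor and 1518 ± 96.0 in DMSO (SD, n = 3 each), a 1.89-fold fall (log2 change -0.91 with an SE of 0.08, limma adjusted p = 5.63e-06). Of all genes, 87.2% had a smaller change in either direction. The call held without any 1 library (log2 changes from -0.96 to -0.87). The locus overlaps Afmid by 169 bases and a predicted gene, Gm20708, over its whole length on the opposite strand. Afmid had 64.3 ± 18.8 normalized counts with the inhibitor and 49.7 ± 10.2 in DMSO (SD, n = 3 each), and Gm20708 was not in the table.

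Dck, which phosphorylates deoxycytidine and activates the drug cytarabine, fell by a smaller amount (chromosome 5, 88764996 to 88783281, plus strand). It had 1101, 1116 and 911 normalized counts in inhibitor libraries, against 1344, 1215 and 1296 in DMSO libraries. Each inhibitor library was below each DMSO library. The means were 1043 ± 114 with the inhibitor and 1285 ± 65.1 in DMSO (SD, n = 3 each), a 1.23-fold fall (log2 change -0.31 with an SE of 0.10, limma adjusted p = 0.0205). The call was lost without inhibitor library 3 (limma adjusted p = 0.0650), without DMSO library 1 (0.0735) and without DMSO library 3 (0.0590), with the direction kept.

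**Figure D2:**
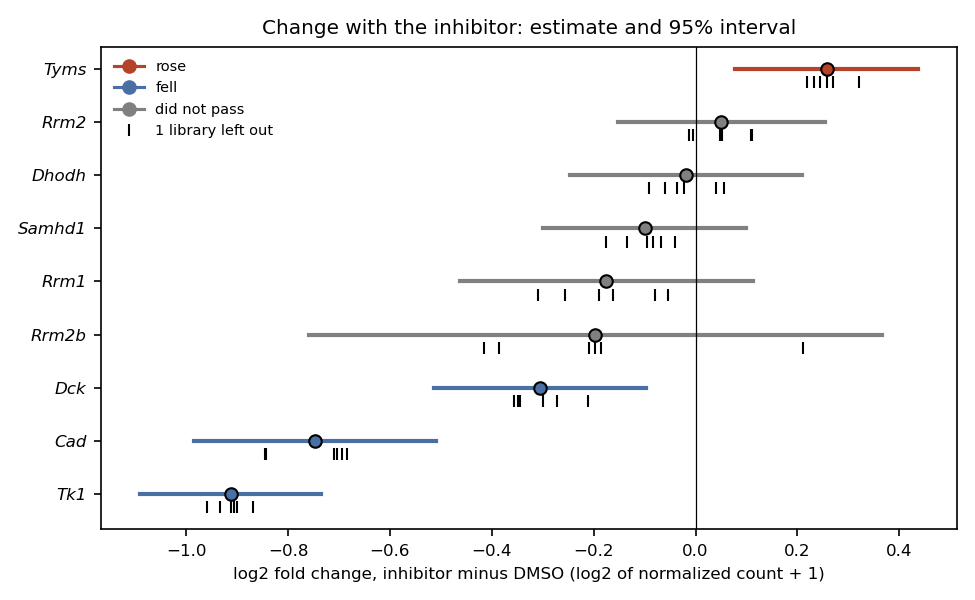
Log2 fold change of each gene, inhibitor minus DMSO (x axis), with its limma 95% interval as a line; genes run down the page from the highest to the lowest value, and short ticks under each line are the values with 1 library left out. The intervals of Tk1, Cad and Dck lie below 0 and that of Tyms above 0, while 1 tick of Rrm2b, without DMSO library 2, stands at 0.21 on the other side of 0 from the rest.

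Of the 5 transcript ratios compared, which were chosen with earlier results known, Tyms over Tk1 differed most between the groups; it sets the risen gene over the one that fell most. Within a library, Tyms over Tk1 was 2.13, 2.19 and 2.01 with the inhibitor and 0.849, 0.946 and 1.02 in DMSO, as ratios of normalized counts. The groups did not overlap, and the log2 ratio was higher by 1.17 with the inhibitor (exact permutation p = 0.1, adjusted 0.125). Tyms was higher and Tk1 lower in every inhibitor library than in every DMSO library. The lack of overlap and this p follow from those values and add no evidence. Dck over Tk1 was 1.38, 1.41 and 1.10 with the inhibitor and 0.833, 0.855 and 0.853 in DMSO, a log2 difference of 0.61 with the same p. Here too the lack of overlap and the p follow from the values of the 2 genes and add no evidence. These ratios do not depend on the size factors, since the factor of a library cancels.

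**Figure D3:**
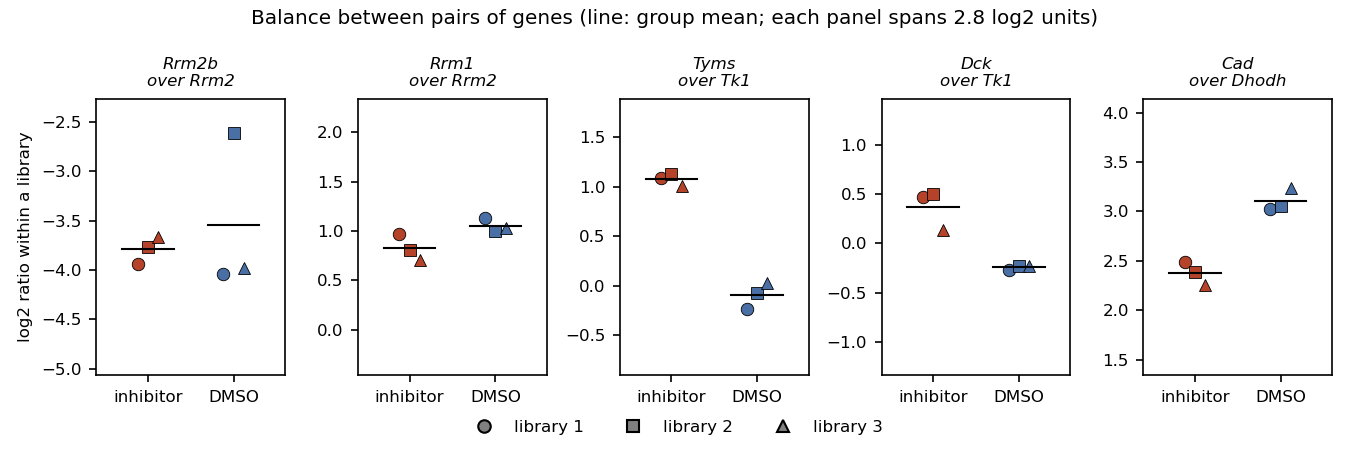
Log2 ratio of 2 genes within a library (y axis, normalized counts + 1), inhibitor libraries left and DMSO libraries right, with a line at the group mean; each panel spans the same range. Tyms over Tk1, Dck over Tk1, Cad over Dhodh and Rrm1 over Rrm2 show no overlap between the groups. They differ by 1.17, 0.61, -0.73 and -0.23 on the log2 scale. Rrm2b over Rrm2 is spread by DMSO library 2.

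Among 12 other genes of salvage and nucleoside transport, 3 rose, 4 fell and 5 did not pass. Among all genes, 23.6% rose and 22.9% fell. Slc29a1, a nucleoside transporter of the plasma membrane, fell by 0.43 and its relative Slc29a3 by 0.63 on the log2 scale (limma adjusted p = 0.00194 and 0.000719). Dguok, the mitochondrial kinase of deoxyguanosine, fell to 162 ± 38.5 normalized counts with the inhibitor, against 238 ± 12.6 in DMSO (SD, n = 3 each; limma adjusted p = 0.0110), a call lost without inhibitor library 2 (0.0520). Tk2, the mitochondrial thymidine kinase, had 267, 243 and 278 with the inhibitor and 306, 277 and 234 in DMSO (limma adjusted p = 0.789). The rises were those of the purine salvage enzymes Aprt (log2 fold change 0.75) and Hprt (0.31) and of the uridine and cytidine kinase Uck1 (0.31), with limma adjusted p between 2.98e-05 and 0.0117. Rises numbered 1 without inhibitor library 2 or DMSO library 3, and falls numbered 2 without inhibitor library 2.

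Samhd1, the triphosphohydrolase that degrades deoxynucleotides and restricts cytarabine, did not pass (chromosome 2, 157097533 to 157135265, minus strand). It had 1107, 973 and 916 normalized counts in inhibitor libraries, against 1114, 1017 and 1072 in DMSO libraries. Inhibitor library 1 was near the highest DMSO library and the other inhibitor libraries were below all of DMSO. The log2 fold change was -0.10 with a 95% interval from -0.30 to 0.10 (limma adjusted p = 0.392).

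Of 12 other measured genes of breakdown and pool cleaning, 3 rose, 3 fell and 6 did not pass. These counts are near the 23.6% risen and 22.9% fallen among all genes. A further 6 listed genes were not in the table. Pnp, purine nucleoside phosphorylase, rose to 4525 ± 194 normalized counts with the inhibitor, against 2856 ± 207 in DMSO (SD, n = 3 each; limma adjusted p = 7.40e-05), and the cytosolic nucleotidase Nt5c2 and the deoxyribose phosphate aldolase Dera rose by 0.59 and 0.35 on the log2 scale. Dctpp1, which removes modified dCTP from the pool, fell by 0.60 (limma adjusted p = 0.000514), and the nucleotidases Nt5c and Nt5c3b by 0.36 and 0.46 (0.00683 and 0.0188). Nt5c3b lost its call without inhibitor library 1 (limma adjusted p = 0.0506), inhibitor library 2 (0.0706) or DMSO library 1 (0.0919).

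**Figure D4:**
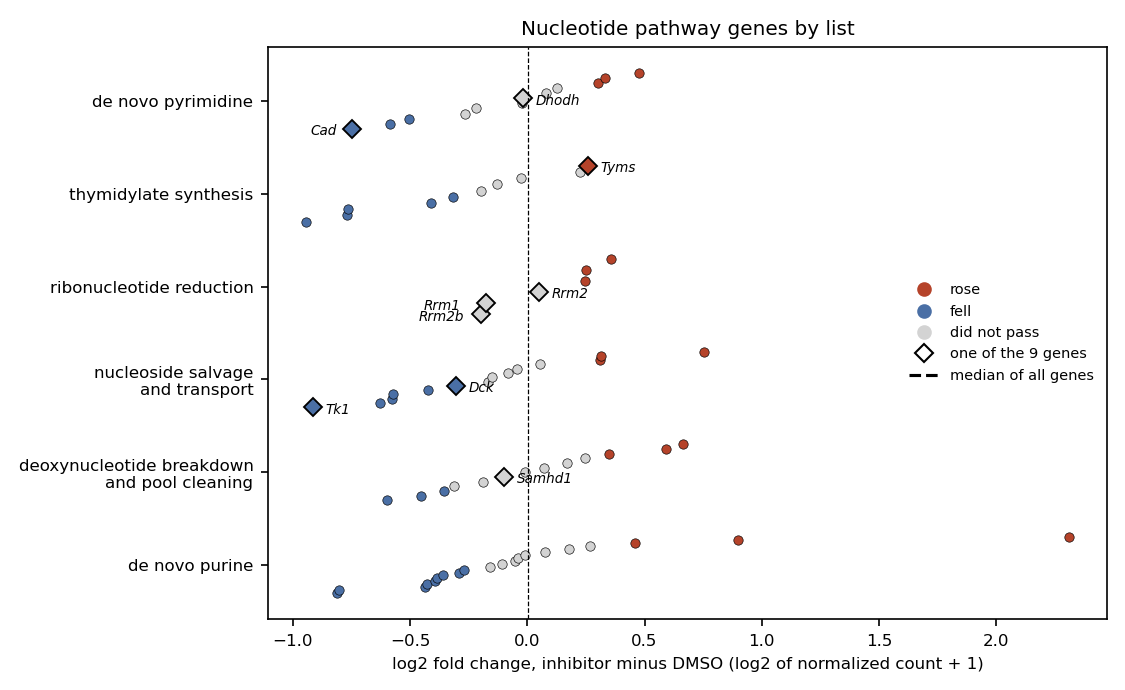
Log2 fold change, inhibitor minus DMSO (x axis), of each measured gene in 6 lists of nucleotide genes; diamonds are the 9 genes and the dashed line is the median of all genes. Genes of thymidylate synthesis other than Tyms lie mostly to the left, with 5 fallen and 0 risen. The 3 electron donors of the reductase lie to the right. Of all genes, 22.9% fell and 23.6% rose.

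Over the 6 lists, 66 other genes were measured. Of these, 34.8% fell and 22.7% rose, against 22.9% and 23.6% of all genes. Falls numbered 23 in all libraries and 15 without inhibitor library 2, where calls over all genes numbered 4145 in place of 5418.

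Genes of S phase and their regulators were compared with the 9 genes. Of 6 genes fixed for this, Pold1, a catalytic polymerase subunit, fell by 1.22 on the log2 scale, Pola1 by 0.57, Mcm2 by 0.44, Mcm6 by 0.41 and the histone mRNA binding gene Slbp by 0.36 (limma adjusted p between 2.79e-06 and 0.0186). Pcna, the sliding clamp, had 7711, 8252 and 7903 with the inhibitor and 7858, 6749.5 and 6972 in DMSO (limma adjusted p = 0.203). Of all 11644 genes, 22.9% fell and 23.6% rose. Myc, known to act on Cad in other cells, fell by 1.07 on the log2 scale (limma adjusted p = 3.06e-06). The repressor E2f8 fell by 0.77 (limma adjusted p = 5.43e-05), E2f7 did not pass (0.0743), and the activator E2f1 passed at the edge (log2 fold change -0.31, limma adjusted p = 0.0460). E2f1 lost its call without inhibitor library 1 or 2 or DMSO library 1 or 3 (limma adjusted p between 0.0646 and 0.210), and Mcm6 lost its call without inhibitor library 2 or 3 or DMSO library 1 (0.0647 to 0.0810). The part of these genes in the levels of the 9 was not tested.

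Levels were compared between genes per kilobase of the principal transcript. In inhibitor libraries the order was Rrm2 (1633 ± 142 normalized counts per kilobase), Rrm1 (1600 ± 286), Tk1 (559 ± 13.9), Tyms (536 ± 9.96), Cad (363 ± 43.0), Dck (339 ± 37.0), Samhd1 (254 ± 25.03), Dhodh (244 ± 17.3) and Rrm2b (56.4 ± 0.895) (SD, n = 3). In DMSO it was Rrm1 (1798 ± 227), Rrm2 (1577 ± 125), Tk1 (1054 ± 66.6), Cad (609 ± 70.5), Tyms (449.6 ± 35.6), Dck (417 ± 21.1), Samhd1 (272 ± 12.3), Dhodh (247 ± 25.4) and Rrm2b (70.5 ± 37.7). Rrm1 and Rrm2 overlapped in both groups, as did Samhd1 and Dhodh. Cad and Dck overlapped with the inhibitor and Tyms and Dck in DMSO, and with the inhibitor the means of Tk1 and Tyms differed by less than the sum of their SDs. Tk1 was above Tyms in each library of both groups, at 553.3, 548.7 and 574.7 against 535.4, 546.9 and 527 normalized counts per kilobase in inhibitor libraries. The order rests on 1 transcript length per gene, 3163 bases for Tyms and 1440 for Tk1, though 9 and 7 transcripts are annotated. Which of these the cells use was not tested. Without correction for length, Tyms exceeded Tk1 in each inhibitor library, with means of 1697 and 805.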

How the data were processed

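Polyadenylated RNA of MLL-ENL/NrasG12D cells was made into stranded libraries, per the labels' protocols. The submitters' processing notes list DESeq 1.16.0, HTSeq 0.6.0, TopHat2 2.0.10 and CASAVA 1.8.2, with build mm10 and no roles; which annotation and strand setting were used is not given in the sources used here. The authors deposited 1 table of normalized signal: read counts per gene divided by a size factor per library. In every library 100% of values were whole multiples of 1 step (tolerance 1e-06), so whole reads were recovered; edgeR 4.0.16 on them called 5412 genes.

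Groups came from sample titles. All genes were fitted in R 4.3.3 by limma-trend, from limma 3.58.1, using log2(normalized count + 1), two-sided, with Benjamini-Hochberg adjustment over all 11644 genes, a threshold of 0.05, no block and no further filter; this scale understates changes of low genes. Ratios were tested by exact permutation. The fit was tested on simulated data. Alternatives were TMM and upper-quartile factors, edgeR, DESeq2 1.42.0, pseudocounts of 0.5 and 5, a 2-fold minimum, a block on replicate number, a mean of at least 100 and fits that each left out 1 library. No 2 libraries of a group agreed within sampling noise (chi-square per degree of freedom 9.43 to 20.7).

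The 9 genes and the lists were chosen with earlier results of these data known. Named genes were the 9, up to 3 others per list and direction with the smallest adjusted p, 6 S-phase genes, 6 regulators and nearest patterns; others (Ddit3, Mdm2, Ccng1, Bax, Phlda3, Sesn1, Sesn2, Ctps, Tk2, Dut, Dtymk, Impdh2) were chosen after their values were seen. The values of 1 further gene, included in the list counts, are not reported here. Coordinates and transcript lengths are from GENCODE mouse release 21 (mm10), promoters from RefSeq.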

Additional observations from a re-analysis of the deposited data

How the results depend on the processing

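Cad, Tk1, Rrm1 and Samhd1 kept their direction and their side of the threshold under all 14 alternatives run for them, Rrm2b in 13 of 14, Tyms and Dck in 11 of 14, and Dhodh and Rrm2, which were near 0, in 12 of 14. The log2 fold change of Dhodh turned to 0.039 without inhibitor library 2 and 0.056 without DMSO library 1 (range over left-out libraries -0.092 to 0.056). That of Rrm2 turned to -0.013 without inhibitor library 1 and -0.0059 without DMSO library 2 (range -0.013 to 0.11). That of Rrm2b turned to 0.21 without DMSO library 2 (range -0.41 to 0.21), as did its log2 ratio to Rrm2 (0.22, range -0.50 to 0.22); the cause was not tested. With 1 library left out, risen genes among the 9 numbered 0 to 1 (limma; 1 at an unadjusted p under 0.05, and 1 by edgeR and DESeq2 on all libraries) and fallen genes 2 to 3; in the other nucleotide genes 10 to 16 rose and 15 to 22 fell, against 15 and 23 in all libraries. A 2-fold minimum left 0 risen and 0 fallen among the 9 (unadjusted p without that minimum: 1 and 3), 1 risen and 0 fallen among the other nucleotide genes (unadjusted p without it: 25 lower), and 834 risen and 354 fallen over all genes. TMM factors shifted the median of all genes to -0.021, and edgeR, with 2593 risen and 2819 fallen, kept 1 and 3 calls among the 9.

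Deviations from group means correlated at 0.165, 0.0499 and 0.205 between libraries of the same number (across genes). Between libraries of different numbers they correlated at -0.159 to -0.00278, so each library correlated best with its own number. Deviations of a group sum to 0, so these values are not independent. The main fit did not take the numbers to pair the libraries, and whether libraries of a number share a batch was not tested. With the replicate block 5932 genes were called, against 5418 without it, and 1 rose and 3 fell among the 9. The log2 ratios of the 5 pairs and their test do not use the block. No formal outlier test was made, since each group held 3 libraries. The SE of the log2 fold change was 0.08 for Tk1 and 0.26 for Rrm2b, so a change of the size of that of Tyms was not detectable for Rrm2b.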

Other observations

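Purine nucleotides are the source of dATP and dGTP. Of 20 measured genes of a list of 21 for their de novo route, 9 fell, 3 rose and 8 did not pass, against 22.9% fallen and 23.6% risen among all genes, with a median log2 fold change of -0.14, beside 0.00 for all genes. Pfas, an amidotransferase of inosine monophosphate synthesis, fell to 2199 ± 161 normalized counts with the inhibitor, against 3868 ± 304 in DMSO (SD, n = 3 each; limma adjusted p = 2.79e-05). Guk1, the guanylate kinase, fell by 0.81 and Prps2, which makes the ribose phosphate donor, by 0.43 on the log2 scale (limma adjusted p = 0.000122 and 0.00323). The dehydrogenase Impdh2, which commits the route to guanine, fell by 0.44, whereas its less abundant relative Impdh1 rose by 0.90 (limma adjusted p = 0.00502 and 0.000361). Prpsap2, which associates with the synthetase of the ribose phosphate donor, rose by 0.46 (limma adjusted p = 0.000755). Ak1, an adenylate kinase, had 329.9, 268 and 263 normalized counts with the inhibitor, against 61.1, 52.5 and 57.0 in DMSO, a log2 fold change of 2.31 (limma adjusted p = 4.03e-07). Falls numbered 6 without inhibitor library 2, DMSO library 1 or DMSO library 3, and rises numbered 5 without inhibitor library 3.

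The genes nearest to Tk1 in pattern, by the root mean square difference of centred log2 values over the 6 libraries among 8789 genes with a mean of at least 100 and an established name, were Ift140 (0.0325), Irak1 (0.0493) and Cenpv (0.0518). The nearest to Tyms were Chd9 (0.0221), Hif1an (0.0330) and Rc3h2 (0.0409). These are likenesses over 6 libraries of 2 groups and say nothing of shared control.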
